A study of Mus musculus with 15 samples.

Results

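Glutathione transferases and UDP-glucuronosyltransferases attach glutathione and glucuronic acid to drugs, steroids, bile pigments and lipid peroxidation products, and their transcripts were followed here in the maternal mouse liver. The genes were chosen by symbol, as rows of the count table named for a Gsta, Gstk, Gstm, Gstp, Gstt, Mgst or Ugt1, Ugt2 or Ugt3 gene, with at least 10 counts in at least 3 libraries. Of 21702 genes in the table, 43 fit the symbols and 36 passed the minimum, namely 20 glutathione transferases and 16 UDP-glucuronosyltransferases. The 7 rows below the minimum were Gstt4, Mgst2, Ugt1a2, Ugt1a7c, Ugt1a8, Ugt2a1 and Ugt2a2, and none of them had more than 8 counts in any library. All 36 genes passed the low-count filter of the test, which kept 12172 genes.

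Livers came from adult wild-type female mice, C57BL/6 in the labels and C57BL/6N in the study's methods, that had received an adeno-associated virus of serotype 8 by tail vein before mating. AAV8-null carried the empty vector and AAV8-p21 carried a mouse p21 cDNA under the hepatocyte promoter TBG, so that p21 was raised in hepatocytes. Every animal, the non-pregnant (NP) controls included, had been infected. p21, encoded by Cdkn1a, is an inhibitor of cyclin-dependent kinases. The 5 groups of 3 mice were AAV8-null NP, AAV8-null at 8 days post-coitum (dpc), AAV8-null at 16 dpc, AAV8-p21 at 8 dpc and AAV8-p21 at 16 dpc, with no AAV8-p21 NP group. Samples are labelled as separate animals, and the 3 libraries of AAV8-p21 at 16 dpc are called a, b and c because their column numbers differ from those of their labels. Bulk liver RNA cannot tell fewer cells of a type from less RNA per cell.

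In the liver, Gsta, Gstm, Gstp and Gstt enzymes are soluble glutathione transferases, Gstk1 is mitochondrial or peroxisomal, and the Mgst proteins sit in membranes. The UDP-glucuronosyltransferases are enzymes of the endoplasmic reticulum membrane that draw on UDP-glucuronic acid. Ugt1a1 conjugates bilirubin, and Ugt2b enzymes act on steroids and many drugs. Several of these genes are textbook targets of the nuclear receptors CAR and PXR, of the aryl hydrocarbon receptor (AhR) and of the oxidant-responsive factor Nrf2.

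Most of the genes lie in clusters of close copies, so the sequence decides how well a read can be given to one of them. In GRCm38, the build of mm10, 6 Ugt1a genes of the set start between chr1:88055388 and chr1:88211959 and end in the same last exons. There are 8 Ugt2 genes at chr5:86889767-87424203, 7 Gstm genes at chr3:107895821-108044894, and Gstp1, Gstp2 and Gstp3 at chr19:4035407-4059569. Each Ugt1a gene shares exon bases with the other genes of its cluster, and 913 of 2224 exon bases of Ugt1a1 and 938 of 2382 of Ugt1a6b are its own. Among all 86-base stretches of annotated transcripts, the read length of the study, those found in no other gene made up 21.8% for Ugt1a1, 27.3% for Ugt1a6b, 36.6% for Ugt1a5, 43.8% for Ugt1a10, 72.7% for Gstp1, 51.3% for Gstp2 and 17.1% for Gsta1. The same share was 100% for Gsta3, Gsta4, Gstm4, Mgst1 and Mgst3 and 99.6% for Ugt3a1. Stretches were compared by gene over all annotated transcripts, not only those of the protein-coding genes counted by the study. A stretch in the shared Ugt1a exons thus counts as found in other genes, although it lies at the same genomic position. The study kept reads that mapped uniquely in the genome, which these shares do not measure. Ugt1a6b and Ugt1a6a are printed because the first of them is called in the tests and its neighbour is not. They differ at 26 of 1593 coding bases, all 26 in the first coding exon. Gstp1 and Gstp2 are printed because they differ at 12 of 630 coding bases. Each stretch of 86 bases is coding sequence of the first exon (Ugt1a6) or exon 5 (Gstp), and capitals mark the bases that differ within the pair, 13 for Ugt1a6b and Ugt1a6a and 6 for Gstp1 and Gstp2.
Ugt1a6b, chr1:88107216-88107301, plus strand: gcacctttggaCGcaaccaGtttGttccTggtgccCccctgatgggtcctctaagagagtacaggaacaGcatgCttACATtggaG
Ugt1a6a, chr1:88138748-88138833, plus strand: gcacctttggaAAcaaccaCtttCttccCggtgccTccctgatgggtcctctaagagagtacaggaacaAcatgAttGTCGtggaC
Gstp1, chr19:4036694-4036779, minus strand: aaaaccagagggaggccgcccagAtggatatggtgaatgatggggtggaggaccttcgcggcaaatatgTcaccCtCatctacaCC
Gstp2, chr19:4040988-4041073, minus strand: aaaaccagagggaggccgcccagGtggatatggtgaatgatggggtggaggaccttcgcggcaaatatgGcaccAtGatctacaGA

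Promoters of 5 genes are printed because each Ugt1a gene has its own first exon and start, and because Gstp1 and Mgst3 are called in opposite directions below. RefSeq promoter windows of 300 bases (GRCm38.p6, 250 before to 50 after the start) were at hand for 32 of the 36 genes. There was none for Gsta4, Gstt2, Ugt1a6b and Ugt3a2. In both strands of the 39 windows of these genes, GTTAAT, the core of an HNF1 site, was in 7 against 7.10% of all 32851 windows. TTATGNAA, a D-box, was in 4 against 3.38%, and TGACNNNGC, an antioxidant response element core, in 4 against 12.4%. GCGTG, a xenobiotic response element core, was in 9 against 32.4%, TATAAA, the TATA box, in 5 against 13.6%, and CACGTG, an E-box, in 0 against 7.15%. These are matches of letters and say nothing of binding. The 250 bases before each start follow, with matches to GTTAAT, TTATGNAA or GCGTG in capitals, reverse complements included. The marked matches do not overlap one another.
Ugt1a10, chr1:88055161-88055410, plus strand: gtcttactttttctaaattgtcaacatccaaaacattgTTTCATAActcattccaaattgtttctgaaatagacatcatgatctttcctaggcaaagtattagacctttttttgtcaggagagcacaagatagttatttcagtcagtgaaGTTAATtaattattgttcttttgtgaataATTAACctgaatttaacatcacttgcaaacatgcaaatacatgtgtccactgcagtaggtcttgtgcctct
Ugt1a5, chr1:88165762-88166011, plus strand: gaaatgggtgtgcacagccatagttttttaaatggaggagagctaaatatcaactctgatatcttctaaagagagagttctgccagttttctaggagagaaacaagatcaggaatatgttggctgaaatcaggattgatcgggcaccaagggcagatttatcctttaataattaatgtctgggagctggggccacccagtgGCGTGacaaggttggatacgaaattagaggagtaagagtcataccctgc
Ugt1a1, chr1:88211709-88211958, plus strand: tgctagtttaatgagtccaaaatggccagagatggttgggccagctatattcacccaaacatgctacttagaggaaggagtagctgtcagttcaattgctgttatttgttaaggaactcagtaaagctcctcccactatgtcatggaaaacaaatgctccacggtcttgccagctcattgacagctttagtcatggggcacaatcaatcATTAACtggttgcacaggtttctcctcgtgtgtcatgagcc
Mgst3, chr1:167393842-167394091, minus strand: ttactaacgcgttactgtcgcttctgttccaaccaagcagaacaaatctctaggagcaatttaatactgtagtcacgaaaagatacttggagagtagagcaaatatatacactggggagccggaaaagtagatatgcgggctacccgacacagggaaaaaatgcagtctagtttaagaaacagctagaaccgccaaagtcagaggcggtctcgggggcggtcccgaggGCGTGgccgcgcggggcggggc
Gstp1, chr19:4037913-4038162, minus strand: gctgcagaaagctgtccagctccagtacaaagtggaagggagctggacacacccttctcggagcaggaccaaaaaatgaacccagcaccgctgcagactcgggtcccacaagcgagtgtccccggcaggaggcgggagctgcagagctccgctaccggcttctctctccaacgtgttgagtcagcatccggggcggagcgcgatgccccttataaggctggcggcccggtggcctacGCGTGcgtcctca

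Counts per library summed to 12280709 to 17615185, and levels are given as counts per 1000000 (CPM) of the library size, scaled by the trimmed mean of M-values (TMM). The 36 genes took 0.433% to 1.13% of the counts of a library. Cdkn1a, the gene delivered, was at 3.29 to 127 CPM in the 9 AAV8-null libraries and at 347 to 1664 CPM in the 6 AAV8-p21 libraries, with no overlap. The hepatocyte marker Alb, which encodes albumin, took 7.90% to 12.9% of counts at NP and 8 dpc and 20.5% to 27.8% at 16 dpc, and the TMM factors were 1.10 to 1.25 and 0.682 to 0.839 in the same libraries. AAV8-null 8 dpc replicate 3 stood apart from its group in the mitotic genes, whose summed level was 27.9 CPM against 246 and 253 CPM in replicates 1 and 2.

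Per kilobase of exon bases that belong to one gene alone, the glutathione transferases were led by Mgst1, the microsomal enzyme, with a mean of 1133 CPM per kb over the 15 libraries, followed by Gstm1 at 545 and Gsta3 at 225. The UDP-glucuronosyltransferases were led by Ugt2b36 at 290 CPM per kb, Ugt1a1 at 277, Ugt2b5 at 221 and Ugt3a2 at 133, the last a gene of the Ugt3a family, which prefers other sugars to glucuronic acid. The Ugt1a values are divided by the bases outside the shared exons, and they and their rank hold only if reads in the shared exons were not counted, a setting not given in the sources used here. The lowest levels were those of Ugt1a6a (1.97), Gsta1 (1.15), Gstp2 (1.08) and Ugt1a10 (1.05 CPM per kb). Ugt2b36 and Ugt1a1 stood side by side in this order with AAV8-null NP means of 287 ± 35.3 and 289 ± 90.6 CPM per kb, and such neighbours cannot be ranked beyond their spread. Within groups Ugt3a2 varied least, with a median coefficient of variation of 9.30% over the 5 groups, and Gstm3 varied most, at 87.7%, ahead of Ugt2b37 at 75.3% and Gsta1 at 71.5%.

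The libraries of a group did not vary independently from gene to gene. AAV8-p21 16 dpc library c was the lowest of its group for 31 of the 36 genes, AAV8-null 16 dpc replicate 3 for 29, AAV8-null 8 dpc replicate 3 for 26 and AAV8-null NP replicate 2 for 19, against 40.3%, 32.3%, 40.1% and 27.3% of all tested genes. In AAV8-p21 at 8 dpc, replicate 2 was the lowest for 17 genes, against 27.7%. Library c and AAV8-null 8 dpc replicate 3 also had the highest mean level of the 17 PPAR-alpha targets in their groups, 8.88 against 6.94 and 7.72 and 8.54 against 7.20 and 6.67 on the log2 CPM scale. AAV8-null NP replicate 2 was also highest, at 8.31 against 7.71 and 8.11, and AAV8-null 16 dpc replicate 3 and AAV8-p21 8 dpc replicate 2 were not, at 9.16 against 8.71 and 9.85 and 6.65 against 6.29 and 7.46. Cyp2b10, the cytochrome most used as a sign of CAR activity, was at 10.6 CPM in library c against 38.2 and 30.2 CPM in a and b, at 1.60 CPM in AAV8-null 16 dpc replicate 3 against 15.4 and 4.33 CPM, at 7.33 CPM in AAV8-null 8 dpc replicate 3 against 42.0 and 36.3 CPM, and at 4.45 CPM in AAV8-null NP replicate 2 against 18.3 and 11.4 CPM. In AAV8-p21 8 dpc replicate 2 it was the highest of its group, at 53.8 against 40.5 and 32.6 CPM. The part of these animals' state in the levels below was not tested.

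**Figure D1:**
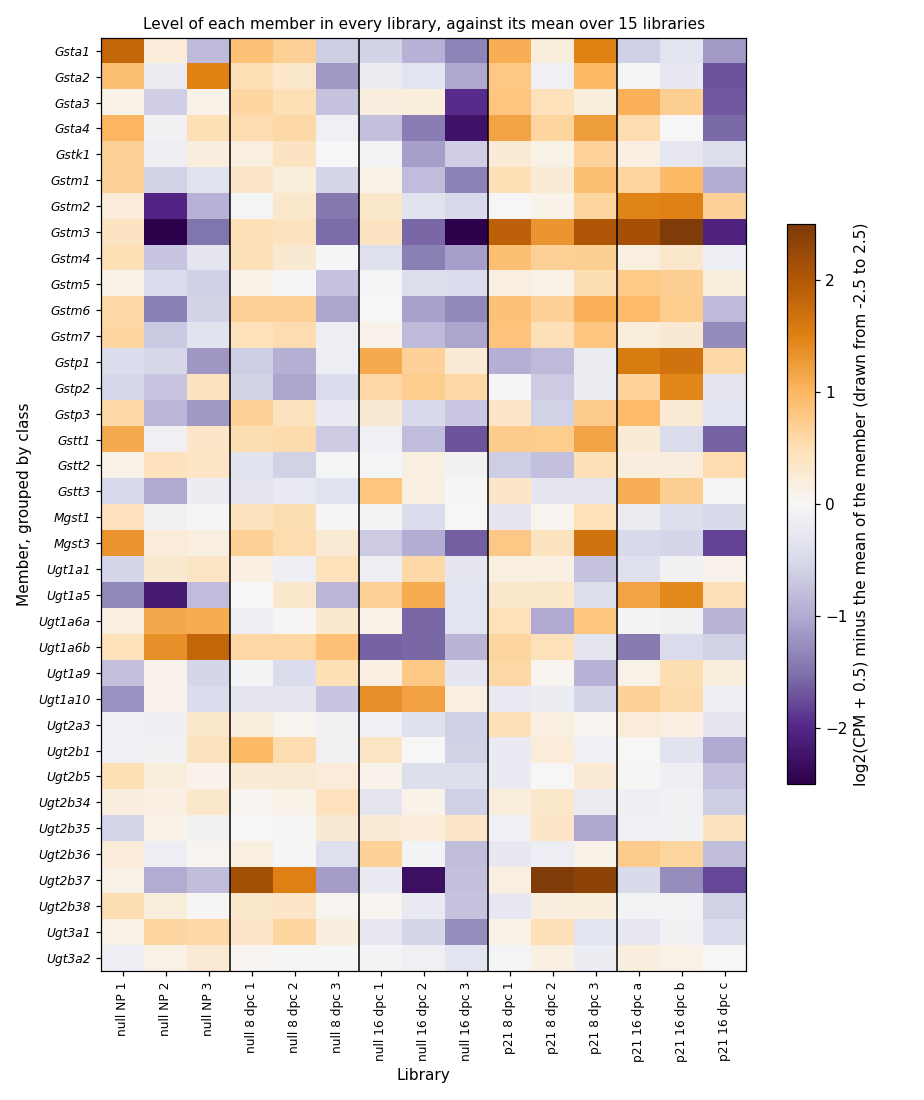
Level of each of the 36 genes (rows, by class) in each of the 15 libraries (columns, by group), as log2(CPM + 0.5) minus the gene's mean over all libraries, with orange above and purple below that mean on a colour scale drawn from -2.5 to 2.5. AAV8-p21 16 dpc library c and AAV8-null 16 dpc replicate 3 are the most purple of their groups in most Gsta and Gstm rows, and Gstp1 is orange in all 6 libraries at 16 dpc.

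Between AAV8-null 16 dpc and AAV8-null NP, 6 of the 36 genes changed at an adjusted p below 0.05 in edgeR's quasi-likelihood test: Gstp1 and Ugt1a5 were higher, and Ugt1a6b, Gsta4, Mgst3 and Ugt3a1 were lower at 16 dpc. The 2 higher genes were 5.56% and the 4 lower genes 11.1% of the set, where 3.71% of all 12172 tested genes were called higher and 2.82% lower. The median log2 fold change was -0.35 over the 36 genes and -0.03 over all tested genes, with 10 positive and 26 negative values. Without AAV8-null NP replicate 1 the median of the 36 genes was -0.15, with 14 positive values. Between AAV8-null 8 dpc and AAV8-null NP none of the 36 genes was called in either direction, as was none of all tested genes (0% higher and 0% lower), and the median log2 fold change of the 36 genes was 0.01, or 0.20 with 24 positive values in place of 18 without AAV8-null NP replicate 1. In that comparison 3 of the 36 genes (Gstt2, Ugt2b37 and Ugt1a5) had an unadjusted p below 0.05, against 6.6% of all tested genes, and DESeq2 on all 15 libraries called none of the 36, against 0.497% of the genes it tested.

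Between AAV8-null 16 dpc and AAV8-null 8 dpc, 7 genes were called. Gstp1 and Ugt1a10 were higher, and Ugt1a6b, Gsta4, Mgst3, Gstm4 and Ugt3a1 were lower, against a background of 3.16% of tested genes higher and 3.71% lower. All 3 libraries of one group lay above all 3 of the other for 4 genes higher at 16 dpc and 11 lower, where 12.5% and 12.9% of tested genes did so. With AAV8-p21, 16 dpc against 8 dpc, 3 genes were called: Gstp1 was higher, and Mgst3 and Ugt2b37 were lower, against 2.09% and 1.23% of tested genes. The groups did not overlap for 4 genes higher and 8 lower, where 11.5% and 11.4% of tested genes did not. The 2 comparisons with AAV8-null 16 dpc share those 3 libraries. Between groups of 3, an exact permutation test of a single gene cannot give a two-sided p below 0.10, so the tests rest on the spread shared by all genes and groups.

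**Figure D2:**
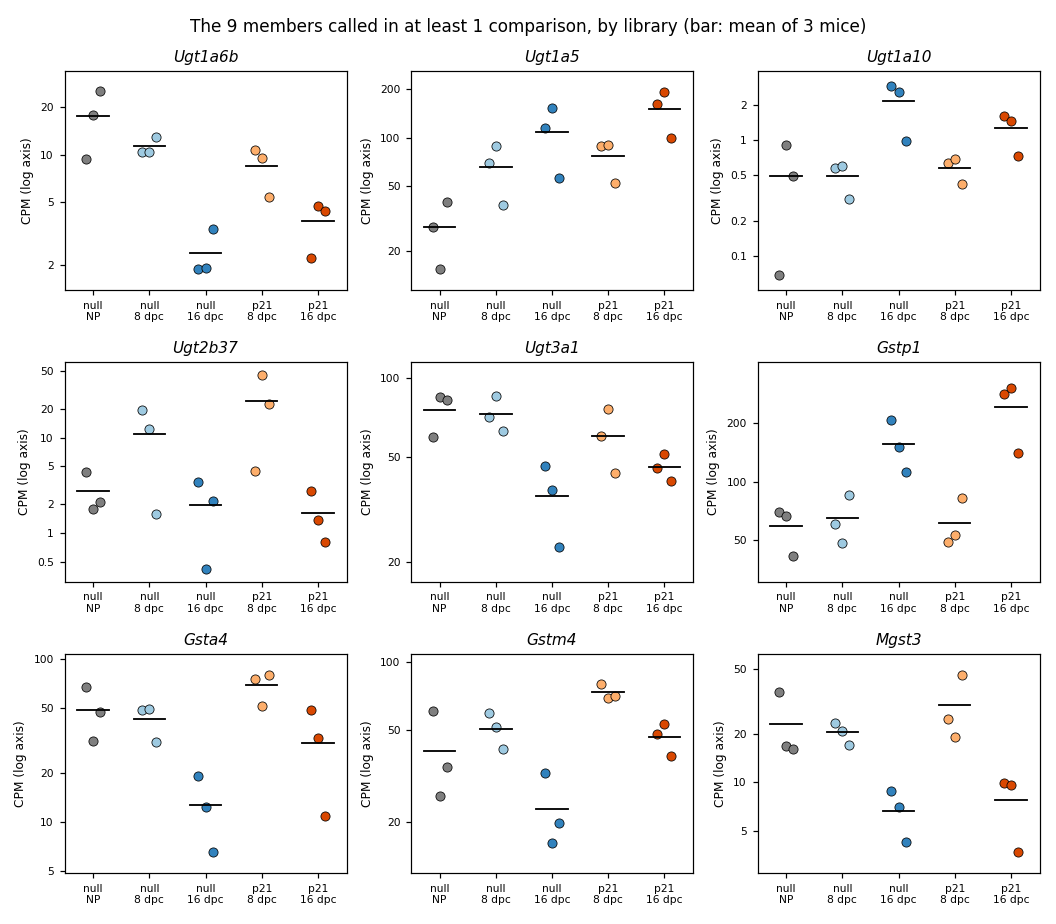
CPM of the 9 genes called in at least 1 comparison, per library (points, n = 3 mice) with the group mean (horizontal bar), on a log axis for the 5 groups. Gstp1 lies at 112 to 207 CPM in AAV8-null and 141 to 305 CPM in AAV8-p21 at 16 dpc, above the 9 libraries at NP and 8 dpc, and Mgst3 lies below them.

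Gstp1, the pi-class transferase, was called in all 3 of these comparisons, as was Mgst3, and was the only one of the 36 called higher with both viruses. Its levels were 70.1, 66.5 and 41.5 CPM in AAV8-null NP, 61.0, 48.6 and 85.0 CPM at 8 dpc and 207, 151 and 112 CPM at 16 dpc. With AAV8-p21 they were 48.8, 53.1 and 83.0 CPM at 8 dpc and 282, 305 and 141 CPM at 16 dpc. Every library at 16 dpc lay above every library at NP and 8 dpc. The difference was 2.64-fold for 16 dpc against NP (log2 1.40 ± 0.34, adjusted p = 0.0250). It was 2.41-fold for 16 against 8 dpc with AAV8-null (log2 1.27 ± 0.34, adjusted p = 0.0383) and 3.94-fold with AAV8-p21 (log2 1.98 ± 0.35, adjusted p = 0.00592). The AAV8-p21 call held in all 6 fits that left out 1 library, and the AAV8-null calls each held in 2 of 6. Scaled by total counts, Gstp1 was not called with AAV8-null (log2 0.70, adjusted p = 0.0717 against NP, and log2 0.54, adjusted p = 0.149 against 8 dpc). The interaction of virus and stage was 0.71 ± 0.47 on the log2 scale (adjusted p = 1.0). Gstp2, its close copy, was at 0.238 to 3.63 CPM with log2 fold changes of 1.15, 1.97 and 1.44, none called by edgeR on all 15 libraries. For 16 against 8 dpc with AAV8-null, DESeq2 called Gstp2 higher. Its adjusted p was 0.0236 on all 15 libraries and 0.0100 on the compared groups alone. Gstp3 was at 6.15 to 28.4 CPM with log2 fold changes of 0.04, -0.60 and 0.11, none called.

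Of the Gsta genes, Gsta4, which clears the lipid peroxidation product 4-hydroxynonenal, was called lower at 16 dpc with AAV8-null. It stood at 67.3, 31.3 and 47.1 CPM in NP, 48.3, 49.5 and 30.9 CPM at 8 dpc and 19.3, 12.3 and 6.59 CPM at 16 dpc. The 16 dpc libraries were below all 6 others of AAV8-null, with log2 fold changes of -1.93 ± 0.48, adjusted p = 0.0273 against NP and -1.75 ± 0.48, adjusted p = 0.0413 against 8 dpc. With AAV8-p21, Gsta4 was at 75.6, 51.7 and 79.4 CPM at 8 dpc and 48.3, 32.9 and 10.9 CPM at 16 dpc (log2 -1.17 ± 0.46, adjusted p = 0.211), and 2 of the 3 libraries at 16 dpc lay above the AAV8-null libraries of the same day. Gsta3, the most abundant alpha-class gene, did not pass the test in any comparison: it ranged over 552 to 921 CPM in AAV8-null NP, 513 to 1297 CPM at 8 dpc and 217 to 979 CPM at 16 dpc. With AAV8-p21 at 16 dpc Gsta3 was at 1783, 1399 and 268 CPM, with library c far below a and b. Gsta1 and Gsta2 had log2 fold changes of -3.25 and -1.40 at 16 dpc against NP with adjusted p of 0.104 and 0.141, and Gsta1 had no count in AAV8-null 16 dpc replicate 3.

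Mgst3, a membrane-bound transferase and peroxidase, was lower at 16 dpc with both viruses. The AAV8-null libraries held 36, 16.8 and 16.1 CPM at NP, 23.2, 20.8 and 17.1 CPM at 8 dpc and 8.82, 7.00 and 4.27 CPM at 16 dpc, and the AAV8-p21 libraries 24.8, 19.1 and 46.2 CPM at 8 dpc and 9.88, 9.59 and 3.71 CPM at 16 dpc. All 6 libraries at 16 dpc were below all 9 others. The log2 fold changes were -1.77 ± 0.44, adjusted p = 0.0261 against NP, -1.60 ± 0.43, adjusted p = 0.0406 against 8 dpc and -1.96 ± 0.43, adjusted p = 0.0234 with AAV8-p21, and the interaction was -0.35 ± 0.60, adjusted p = 1.0. Mgst1, the most abundant gene of the whole set, was at 2432 ± 513 CPM in NP, 2816 ± 479 CPM at 8 dpc and 1994 ± 315 CPM at 16 dpc (SD, n = 3 each). Its largest log2 fold change among the 3 comparisons was -0.50 (adjusted p = 0.235).

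The 7 Gstm genes of chromosome 3, the mu class, included 1 that passed the test. Gstm4 was at 60.9, 25.9 and 34.6 CPM in NP, 59.3, 52.0 and 41.7 CPM at 8 dpc and 32.6, 16.1 and 19.7 CPM at 16 dpc. It fell by 1.16 ± 0.31 on the log2 scale from 8 to 16 dpc (adjusted p = 0.0362), with no overlap, while the NP and 16 dpc ranges overlapped (log2 -0.83 ± 0.30, adjusted p = 0.130). Gstm1, which took most of the mu-class counts, was at 737 ± 367 CPM in NP, 751 ± 224 CPM at 8 dpc and 489 ± 255 CPM at 16 dpc (SD, n = 3), with log2 fold changes of -0.59 ± 0.48, adjusted p = 0.523 and -0.62 ± 0.48, adjusted p = 0.491. All 7 had positive log2 fold changes at 8 dpc against NP, from 0.03 to 0.75, and 6 of 7 negative ones at 16 against 8 dpc, none of the former and 1 of the latter passing the test. Gstk1 was at 106 ± 31.3, 98.3 ± 14.3 and 59.4 ± 21.4 CPM over the same groups and Gstt1 at 219 ± 96.1, 176 ± 70.6 and 90 ± 47.3 CPM (SD, n = 3), neither called, with adjusted p of 0.0984 and 0.146 for 16 dpc against NP.

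In the Ugt1a cluster, genes that share their last exons moved in opposite directions. Ugt1a6b, of the phenol-conjugating Ugt1a6 pair, was at 9.42, 17.9 and 25.2 CPM in NP, 10.4, 10.4 and 13 CPM at 8 dpc and 1.87, 1.92 and 3.38 CPM at 16 dpc. The 3 libraries at 16 dpc were below all 6 others, a difference of 7.31-fold against NP (log2 -2.87 ± 0.41, adjusted p = 0.000749) and 4.71-fold against 8 dpc (log2 -2.24 ± 0.40, adjusted p = 0.00511). Both calls held in all 6 fits that left out 1 library, as no other call with AAV8-null did. With AAV8-p21 its level was 10.7, 9.47 and 5.39 CPM at 8 dpc and 2.21, 4.72 and 4.37 CPM at 16 dpc (log2 -1.17 ± 0.38, adjusted p = 0.120), also without overlap. The interaction was 1.06 ± 0.55, adjusted p = 1.0, so a difference between the viruses was not shown. Ugt1a6a, its copy, was at 0.916 to 8.71 CPM over all libraries with a log2 fold change of -1.46 ± 0.53, adjusted p = 0.123 at 16 dpc against NP.

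Ugt1a5 was at 28.3, 15.5 and 40.2 CPM in NP, 69.8, 89.1 and 38.4 CPM at 8 dpc and 115, 152 and 56.7 CPM at 16 dpc with AAV8-null. The 16 dpc libraries were above the NP libraries (3.85-fold, log2 1.95 ± 0.43, adjusted p = 0.0151) and overlapped those at 8 dpc (log2 0.71 ± 0.42, adjusted p = 0.335). With AAV8-p21 its level was 88.3, 89.6 and 52.7 CPM at 8 dpc and 162, 191 and 99.0 CPM at 16 dpc, which did not overlap, with log2 0.97 ± 0.42, adjusted p = 0.259. Ugt1a10 was near the limit of detection, at 0.0693, 0.914 and 0.489 CPM in NP, 0.582, 0.595 and 0.312 CPM at 8 dpc and 2.94, 2.58 and 0.979 CPM at 16 dpc, which are 1 to 33 counts. It was called higher at 16 than 8 dpc (log2 2.12 ± 0.59, adjusted p = 0.0465) but not against NP (log2 2.10 ± 0.60, adjusted p = 0.0520). Ugt1a1, the bilirubin-conjugating gene and the most abundant of the cluster, was at 169, 304 and 319 CPM in NP, 269.8, 224 and 337 CPM at 8 dpc and 224, 367 and 201 CPM at 16 dpc, groups that overlapped throughout. Its log2 fold changes were 0.00 ± 0.31 and -0.07 ± 0.31 (adjusted p = 0.999 and 0.930), and the AAV8-p21 levels were 276, 271 and 145 CPM at 8 dpc and 191, 230.1 and 261 CPM at 16 dpc.

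Ugt3a1 fell at 16 dpc with AAV8-null while Ugt3a2, the neighbouring gene on chromosome 15, did not pass the test. Ugt3a1 was at 59.8, 84.7 and 82.4 CPM in NP, 70.9, 85.1 and 62.8 CPM at 8 dpc and 46.4, 37.7 and 22.7 CPM at 16 dpc, the last 3 below the other 6. Its log2 fold changes were -1.09 ± 0.26, adjusted p = 0.0247 and -1.04 ± 0.26, adjusted p = 0.0319, and with AAV8-p21, at 60.1, 76.3 and 43.7 and then 45.4, 51.3 and 40.5 CPM, -0.39 ± 0.26, adjusted p = 0.503. Ugt3a2 was between 326 and 493 CPM in all 15 libraries. Among the 8 Ugt2 genes of chromosome 5, Ugt2b37 was called lower at 16 than 8 dpc with AAV8-p21, from 4.49, 45.7 and 22.5 CPM to 2.73, 1.38 and 0.801 CPM (log2 -3.90 ± 0.95, adjusted p = 0.0374), a call that held in 1 of the 6 fits that left out a library. With AAV8-null its level was 4.36, 1.77 and 2.10 CPM in NP, 19.3, 12.3 and 1.56 CPM at 8 dpc and 3.39, 0.417 and 2.14 CPM at 16 dpc, where 2 of 3 libraries at 8 dpc were high and 1 was not (16 against 8 dpc log2 -2.48 ± 0.92, adjusted p = 0.121). The abundant steroid- and drug-conjugating genes Ugt2b36, Ugt2b5, Ugt2b34, Ugt2b1 and Ugt2a3 were not called in any comparison, and Ugt2b36 was at 592 ± 72.8, 544 ± 99.1 and 589.9 ± 291 CPM (SD, n = 3) in NP, 8 dpc and 16 dpc.

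Apart from Ugt1a6b with AAV8-null and Gstp1 with AAV8-p21, each of these calls was lost in at least 1 fit that left out a library, and calls over all genes fell in most of the same fits. For 16 dpc against NP with AAV8-null, 3 of the 36 genes were called without NP replicate 3 (Mgst3, Ugt1a5 and Ugt1a6b) and Ugt1a6b alone without 16 dpc replicate 2, where 3.06% and 3.58% of all genes were called against 6.52% with every library. For 16 against 8 dpc, Ugt1a6b alone was called without 8 dpc replicate 1, 8 dpc replicate 2 or 16 dpc replicate 2, and 3 genes without 16 dpc replicate 3 (Gstp1, Ugt1a10 and Ugt1a6b), where 2.32%, 2.08%, 2.91% and 3.64% of all genes were called against 6.87%. With AAV8-p21, Gstp1 alone was called without library b or c of 16 dpc, where 1.53% and 2.05% of all genes were called against 3.32%. The scale also mattered. By total counts alone, with albumin transcripts at a larger share at 16 dpc, the median log2 fold change of all genes was -0.70 against NP, -0.70 between 16 and 8 dpc and -0.59 with AAV8-p21. On that scale 22, 23 and 18 of the 36 genes were called, of which 21, 23 and 17 were lower, where 50.5%, 53.5% and 35.5% of all tested genes were called. There the median of the 36 genes was -1.04, -1.25 and -0.82.

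**Figure D3:**
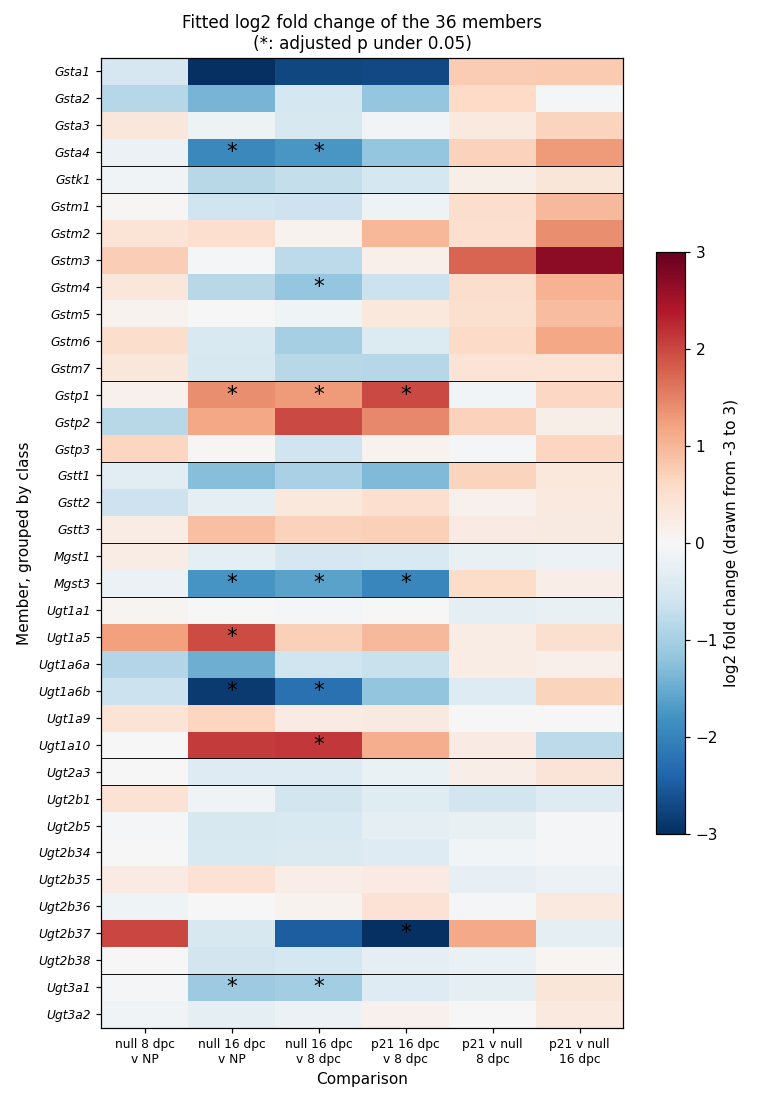
Fitted log2 fold change (colour, drawn from -3 to 3, red for higher and blue for lower) of each of the 36 genes (rows, by class) in 6 comparisons (columns), with an asterisk for an adjusted p below 0.05. Gstp1 is red and Mgst3 blue with an asterisk in all 3 comparisons of 16 dpc with an earlier stage, and all 7 Gstm rows are red without an asterisk in both columns of AAV8-p21 against AAV8-null.

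The comparison of AAV8-p21 with AAV8-null asks what raised p21 in hepatocytes changed at the same stage of pregnancy. None of the 36 genes was called at 16 dpc, where 0.0164% of tested genes were higher and 0.0575% lower, nor at 8 dpc, where 0% were higher and 0.0246% lower. The interaction called none of the 36 and none of all genes (0% and 0%). At an unadjusted p below 0.05 there were 5 of the 36 genes at 16 dpc (Gstm2, Gstm3, Gstm4, Gstm5 and Gsta4), 0 at 8 dpc and 0 for the interaction, against 9.77%, 5.18% and 3.09% of all tested genes. DESeq2 on all 15 libraries called 0 of the 36 in each, against 1.04%, 0.204% and 0% of the genes it tested. The median log2 fold change of the 36 genes was 0.31 at 16 dpc and 0.23 at 8 dpc, with 27 and 22 of 36 above 0, against 0.00 over all genes in both. Single libraries moved these medians: at 16 dpc to 0.18 without AAV8-null replicate 3, 0.54 without AAV8-null replicate 1 and 0.53 without library c, and at 8 dpc to 0.11 without AAV8-p21 replicate 1 and 0.15 without AAV8-null replicate 3. At 16 dpc 5 of the 36 genes were higher in all AAV8-p21 libraries than in all AAV8-null libraries (Gstm2, Gstm4, Gstm5, Gstt2 and Ugt3a2) and 0 lower, where 6.65% and 7.02% of tested genes were. At 8 dpc the counts were also 5 and 0 (Gstt1, Gstm5, Gstm3, Gstm4 and Gsta4), against 5.52% and 4.49%.

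The mu class had positive differences at both stages: all 7 Gstm genes had a positive log2 fold change for AAV8-p21 against AAV8-null, with a median of 1.03 at 16 dpc and 0.52 at 8 dpc. The following genes were singled out after their values were seen. Gstm2 was at 84.3, 52.4 and 47.1 CPM in AAV8-null and 186, 191 and 107 CPM in AAV8-p21 at 16 dpc, without overlap (log2 1.40 ± 0.51, adjusted p = 0.382). Gstm5 was at 8.91, 6.83 and 6.67 and 16.2, 15.6 and 10.7 CPM and Gstm4 at 32.6, 16.1 and 19.7 and 48.1, 53.2 and 38.5 CPM in the same groups, again without overlap, with log2 fold changes of 0.92 ± 0.28, adjusted p = 0.257 and 1.03 ± 0.31, adjusted p = 0.247. Gstm3 was the most uneven, at 33.9, 8.25 and 3.56 CPM in AAV8-null and 112, 176 and 5.75 CPM in AAV8-p21 at 16 dpc, where library c fell within the AAV8-null range (log2 2.68 ± 1.05, adjusted p = 0.424). At 8 dpc Gstm3 was at 35.9, 34.1 and 8.43 and 95.2, 63.7 and 105 CPM, without overlap (log2 1.75 ± 1.0, adjusted p = 1.0). DESeq2 fitted on the compared groups alone called Gstm2 at 16 dpc (adjusted p = 0.00502) and Gstm3 at 8 dpc (adjusted p = 0.0184), where it called 1.09% and 0.627% of the genes it tested, and the edgeR test called neither.

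Other transcripts moved between the same groups. The 17 PPAR-alpha targets had mean levels of 8.71, 9.85 and 9.16 log2 CPM in AAV8-null and 6.94, 7.72 and 8.88 log2 CPM in AAV8-p21 at 16 dpc. Among the 15 clock genes, none of which was called in any comparison, Arntl was at 23.3, 10.2 and 19.8 CPM in AAV8-null against 0.511, 0.582 and 2.91 CPM in AAV8-p21 at 16 dpc. Dbp, a D-box factor of the clock, was at 1.69, 11.4 and 1.33 CPM against 119.9, 81.0 and 51.8 CPM, so that neither gene's groups overlapped (adjusted p = 0.244 and 0.329). The time of day at which livers were taken is not given in the sources used here, and its part in the differences between the viruses was not tested. The 20 pericentral hepatocyte markers belong to a zone where many conjugating enzymes are made. At 16 dpc they summed to 6073 to 9355 CPM in AAV8-null and 8806 to 11902 CPM in AAV8-p21. At 8 dpc the sums, which abundant genes dominate, were 10392 to 12142 CPM in AAV8-null and 8491 to 9587 CPM in AAV8-p21. Their mean log2 CPM at 8 dpc was instead higher with AAV8-p21, at 6.42, 6.31 and 6.38 against 6.20, 6.25 and 6.02. The median log2 fold change of these markers was 0.20 at 8 dpc and 0.56 at 16 dpc. The periportal markers summed to 77004 to 95960 CPM in AAV8-null and 108048 to 127510 CPM in AAV8-p21 at 8 dpc, and to 297653 to 419206 CPM and 260267 to 293926 CPM at 16 dpc. Most of each sum was Alb, at 65701 to 83805 CPM in AAV8-null and 96945 to 116947 CPM in AAV8-p21 at 8 dpc. The mean log2 CPM of the 18 periportal markers overlapped between the viruses at both stages. It was 8.38 to 8.58 and 8.55 to 8.64 at 8 dpc, and 8.53 to 8.66 and 8.50 to 8.71 at 16 dpc. At 8 dpc, the 20 mitotic genes summed to 246, 253 and 27.9 CPM in AAV8-null and 14.2, 26.8 and 43.1 CPM in AAV8-p21, and the 10 stellate cell markers to 187 to 287 CPM and 318 to 392 CPM. The stellate sums overlapped at 16 dpc, at 346 to 460 CPM and 394 to 408 CPM. The neutrophil markers summed to 7.09 to 19.6 CPM in AAV8-null and 3.25 to 5.53 CPM in AAV8-p21 at 8 dpc, and to 7.92 to 34.9 CPM and 4.17 to 8.36 CPM at 16 dpc. The bile duct cell markers were higher in sum in every AAV8-p21 library, at 28.0 to 37.2 CPM in AAV8-null and 46.2 to 64.9 CPM in AAV8-p21 at 8 dpc and 18.3 to 30.0 CPM and 30.9 to 51.6 CPM at 16 dpc. The erythroid markers summed to 89.6 to 103 CPM and 115 to 201 CPM at 8 dpc and overlapped at 16 dpc, and the endothelial, Kupffer and lymphoid sums overlapped at both stages. No gene of these lists was called between the viruses. The part of these transcripts' changes in the Gstm differences was not tested.

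**Figure D4:**
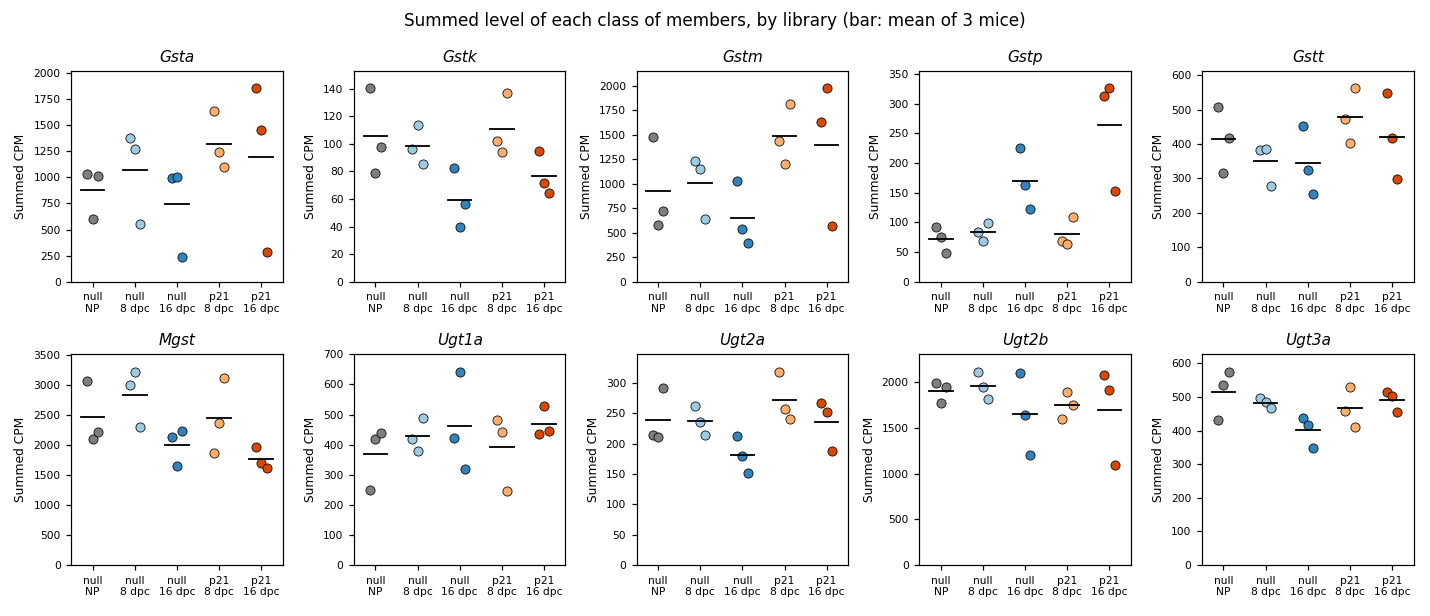
Summed CPM of each class (Gsta, Gstk, Gstm, Gstp, Gstt, Mgst, Ugt1a, Ugt2a, Ugt2b and Ugt3a) per library (points, n = 3 mice) with the group mean (horizontal bar), on axes that start at 0. The Gstp sum is 122 to 226 CPM in AAV8-null and 153 to 326 CPM in AAV8-p21 at 16 dpc against 49.2 to 108.5 CPM in the 9 other libraries, while the Ugt2b sums overlap in all groups.

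The lists that follow are read against the 3.71% of all tested genes called higher and 2.82% lower at 16 dpc against NP. Upstream of the transferases, the genes that make and recycle glutathione gave 0 higher and 2 lower of 18 tested at 16 dpc against NP, 1 and 2 at 16 against 8 dpc, and 1 and 2 with AAV8-p21. The 2 lower were the same genes each time, Cth, the cystathionine lyase that supplies cysteine (log2 -1.54 ± 0.26, adjusted p = 0.00269 against NP), and Ggt6, of the gamma-glutamyltransferase family (log2 -2.77 ± 0.31, adjusted p = 0.000171). The rate-limiting ligase subunits Gclc and Gclm were not called, at 0.16 ± 0.24 and -0.22 ± 0.15 (adjusted p = 0.753 and 0.445). Of 14 genes for the supply of UDP-glucuronic acid and the turnover of glucuronides, Gusb rose and Enpp3 fell in each of these comparisons. Gusb, the lysosomal enzyme that removes glucuronic acid, was at 23.0 ± 6.52 CPM in NP and 65.3 ± 13.4 CPM at 16 dpc (SD, n = 3, log2 1.51 ± 0.24, adjusted p = 0.00169). Its log2 fold change was 1.49 against 8 dpc and 2.05 with AAV8-p21. Enpp3, which breaks down nucleotide sugars, had -2.21 ± 0.32, adjusted p = 0.000841 against NP. Ugdh, which makes UDP-glucuronic acid, was at -0.57 ± 0.26, adjusted p = 0.232 against NP and -0.87 ± 0.27, adjusted p = 0.0626 against 8 dpc.

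Downstream, 2 of 10 exporters of conjugates were called in each of the 3 comparisons. Abcc3, which carries glucuronides from the hepatocyte into blood, was at 308 ± 74.4 CPM in NP, 202 ± 40.2 CPM at 8 dpc and 22.6 ± 9.01 CPM at 16 dpc (SD, n = 3). It fell with log2 fold changes of -3.77 ± 0.47, adjusted p = 0.000364 against NP, -3.17 against 8 dpc and -1.96 with AAV8-p21. Abcg2, of the canalicular membrane, rose by 0.80, 0.82 and 0.89 on the log2 scale. Abcc2, the canalicular exporter of bilirubin glucuronide, was not called (log2 -0.38 ± 0.27, adjusted p = 0.457 against NP).

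Among targets of the receptors that regulate conjugation, 2 of 25 CAR and PXR targets were higher and 7 lower at 16 dpc against NP, with a median log2 fold change of -0.67, and 2 and 4 were called against 8 dpc and 1 and 3 with AAV8-p21. The lower ones included the cytochromes Cyp2c37 (-2.74), Cyp2b13 (-3.51) and Cyp3a11 (-1.14 ± 0.29, adjusted p = 0.0309), and Aldh1a7 was higher (3.71). Abcc3, already counted among the exporters, is also among the 7 lower targets. Cyp2b10 was not called (log2 -0.67 ± 0.75, adjusted p = 0.657). Of 26 Nrf2 targets, 1 was higher and 0 lower against NP (Pgd), 0 and 1 against 8 dpc (Nqo1, log2 -0.86 ± 0.19, adjusted p = 0.0164) and 0 and 1 with AAV8-p21 (Me1), with medians of 0.04, 0.09 and 0.03. Of 4 AhR targets tested, Tiparp was higher against NP (2.09) and 8 dpc (1.71), Nqo1, which is also on the Nrf2 list, was lower against 8 dpc, and Cyp1a2 was not called (-0.95 ± 0.63, adjusted p = 0.414). The receptors' own transcripts were not called at 16 dpc against NP, with log2 fold changes of -1.13 for Nr1i3, which encodes CAR (adjusted p = 0.0648), 0.10 for Nr1i2, which encodes PXR, -0.03 for Ahr and -0.06 for Nfe2l2, which encodes Nrf2. Of the 32 receptors and hepatocyte regulators tested, Prlr, Ghr and Mafk were higher and Mafg lower against NP, the prolactin receptor Prlr by 3.23 ± 0.34.

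Markers of zones and cell types were read in the same comparison. Of the hepatocyte markers, 8 of 15 were higher and 1 lower at 16 dpc against NP, and of the pericentral and periportal markers 1 and 3 were higher and 5 and 4 lower of 20 and 18. No bile duct (7 tested), endothelial (10), Kupffer (11) or lymphoid (7) marker was called, 1 of 10 stellate markers was lower, and 2 of 5 erythroid and 3 of 4 neutrophil markers were higher. Between 16 and 8 dpc with AAV8-null, 12 of 20 mitotic genes were lower, and 4 of 17 PPAR-alpha targets, the endothelial markers Clec4g and Pecam1 and the stellate marker Dcn were higher. The 15 clock genes, none of them called, had median log2 fold changes of -0.85 at 16 dpc against NP, -0.10 against 8 dpc and 1.34 with AAV8-p21. The part of these transcripts in the calls above was not tested. No list gene was called for 8 dpc against NP, for AAV8-p21 against AAV8-null at either stage, or for the interaction.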

How the data were processed

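RNA from 15 livers, 3 per group, was sequenced by the authors as single-end reads of 86 bases from stranded mRNA libraries. Per the labels and the study's methods, reads were trimmed with cutadapt 1.14, aligned to mm10 with HISAT2 2.1.0 and counted on protein-coding GENCODE genes from uniquely mapped reads with HTSeq 0.12.4. The strand and overlap settings are not given in the sources used here. The deposited values are raw counts per gene. They summed to 12280709 to 17615185 per library, and the spread between 3 animals, not depth, set the precision for all but the lowest genes.

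Genes were filtered with filterByExpr (minimum count 10), scaled by TMM and fitted over all 15 libraries with edgeR 4.0.16 (R 4.3.3), its quasi-likelihood test and Benjamini-Hochberg adjustment over 12172 genes. The study's own test was DESeq2, used here (version 1.42.0) as an alternative. Errors are the log2 fold change divided by the root of F, and ± after a CPM is the SD. The fit was checked on simulated counts. The chosen genes and gene lists were set with earlier results of these data known. Text names every chosen gene called in at least 1 comparison (at most 6 up and 6 down), the most abundant of each class, Ugt1a1, list genes that were called or are listed regulators, and Cdkn1a. Genes, exons and stretches of 86 bases come from a GENCODE annotation of GRCm38, promoters from RefSeq GRCm38.p6. In the 16 dpc AAV8-p21 group, 3 columns could be matched to the group but not to a numbered sample. They were used as replicates of that group, and no column was left out.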

Additional observations from a re-analysis of the deposited data

How the results depend on the processing

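The number of the 36 genes called was 6 at 16 dpc against NP, 7 at 16 against 8 dpc with AAV8-null and 3 with AAV8-p21, and 0 in the other comparisons. Over all tested genes 6.52%, 6.87% and 3.32% were called. Scaling by total counts gave 22, 23 and 18 (50.5%, 53.5% and 35.5% of all genes), and edgeR on the compared groups alone gave 3, 2 and 3 (3.49%, 2.93% and 3.31%). DESeq2 on all 15 libraries gave 9, 8 and 3 (9.32%, 10% and 6.01%). DESeq2 on the compared groups alone, chosen after seeing the data, gave 8, 8 and 8 (7.62%, 8.51% and 6.64%), with 1 for AAV8-p21 against AAV8-null at 16 dpc and 1 at 8 dpc (1.09% and 0.627%). The scale by total counts also moves the median of all genes. Otherwise the cause was not tested. DESeq2 size factors, no count filter, a stricter count filter and a fold threshold left all counts within 1 of these. Leaving out 1 library gave 1 to 7, 1 to 7 and 1 to 2 genes (3.01% to 5.91%, 2.08% to 10.3% and 1.29% to 3.74% of all genes), and 0 to 0 elsewhere. Pairing of the animals by replicate number was not shown. Same-numbered libraries had a mean correlation of deviations of 0.00588 (-0.576 to 0.472), and different-numbered ones -0.00701 (-0.551 to 0.614). With ranges this wide, the means cannot decide whether animals were paired. A replicate block on the 12 numbered libraries gave 6 genes at 16 dpc against NP, 6 at 16 against 8 dpc (5.44% and 5.43% of all genes) and 0 in the other 2 comparisons, the counts those libraries gave without the block. At 16 against 8 dpc the genes were not all the same: with the block Gstp1 was not called (log2 1.27, adjusted p = 0.0531) and Gstm4 was. Gstp2, not called by edgeR on all 15 libraries, was called higher in the 12 with and without the block (adjusted p = 0.0350 and 0.0440). By total counts 5, 3 and 6 of the 36 log2 fold changes were positive in the 3 comparisons, against 10, 10 and 14 by TMM. Among the genes followed singly under each alternative, signs turned for Ugt2b37 at 16 dpc against NP, whose log2 fold change ran from -1.11 to 0.0282 (without NP replicate 1, and 0.0158 without 16 dpc replicate 2) as single libraries were left out, and for Ugt1a5 at 16 against 8 dpc, to -0.0315 by total counts. Neither gene was called in those comparisons. Ugt1a10, Gsta1 and Gstp2 were under 5 CPM in every library, where counting error adds to the spread between animals.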

Other observations

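Enzymes that use glutathione but belong to other families included genes that rose and genes that fell. Gpx3, the secreted glutathione peroxidase, was at 2.25 to 2.94 CPM in NP, 2.33 to 3.64 CPM at 8 dpc and 55.7 to 86.1 CPM at 16 dpc with AAV8-null, and at 1.54 to 2.87 CPM and 148 to 169 CPM at 8 and 16 dpc with AAV8-p21. Its log2 fold change was 4.74 ± 0.27, adjusted p = 4.07e-07 for 16 dpc against NP and 6.17 ± 0.29, adjusted p = 2.77e-08 for 16 against 8 dpc with AAV8-p21 in edgeR's quasi-likelihood test. Gpx1, the abundant intracellular peroxidase, fell by 1.14 ± 0.25 on the log2 scale at 16 dpc against NP (adjusted p = 0.0143). Ptges, a prostaglandin E synthase of the same protein superfamily as the Mgst genes, rose by 4.13 ± 0.75 (adjusted p = 0.00463), and Clic4 by 1.08 ± 0.26 (adjusted p = 0.0238). In all, 3 of 27 such genes were higher and 1 lower against NP, 3 and 1 against 8 dpc, and 2 and 1 with AAV8-p21, with Gpx3 higher and Gpx1 lower each time.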
